A study of Drosophila melanogaster with 6 samples.

Results

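Neuropeptide receptor genes were taken as a fixed list of 37 symbols, and a gene belonged to the set if its symbol stood in the count table of Drosophila melanogaster brains. The table held 34 of the 37, of 16725 genes in all. The 3 symbols not in it were CNMaR, Lgr4 and moody2, and membership rested on the symbol alone. The table lists CG33696, which RefSeq gives as an older symbol of CNMaR, and CG34411, which it gives as an older symbol of Lgr4. Both were kept out of every count of the set, and their values are given at the end of the levels below.

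Neuropeptides are short secreted peptides that neurons and endocrine cells release to tune feeding, sleep, water balance, mating and moulting. Most of their receptors cross the membrane with a bundle of helices and pass the signal to G proteins, while the insulin receptor InR is a receptor tyrosine kinase that signals through a lipid kinase cascade. In the fly brain many of these receptors are made by small, scattered groups of neurons, so their messages are usually scarce in RNA from the whole organ.

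The RNA came from brains of adult flies aged 5 days, about 15 brains per sample, extracted with TRIzol. Libraries labelled rRNA-depleted were made by letting DNA probes pair with rRNA and digesting the hybrids with RNase H. Libraries labelled polyA-enriched were made from RNAs with a polyA tail. The study's methods state that the total RNA was split between the library types, and both types have libraries numbered 1 and 2 (n = 2 per type). The flies were of Canton-S stocks by the study's methods, while the labels name no genotype, no treatment of the flies is named, and all 4 libraries share the age and the tissue. The pooled brains make each library an average over about 15 animals. Nothing in the labels says that the libraries numbered 1 and 2 came from separate cohorts beyond the study calling them biological replicates.

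The 4 libraries held between 11838449 and 14295047 counts, so that 3 counts, the smallest number taken as detection, came to between 0.21 and 0.253 counts per 1000000 counts of the library (CPM). The libraries of the same number deviated together from their group means (Pearson's r = 0.902 across 9737 genes, which are not independent replicates), so the libraries are named by their labels and both the label and the number were compared. Summed levels of 6 neuronal genes, with elav, nSyb and brp among them, were 9114 and 8548 CPM in rRNA-depleted 1 and 2, against 7308 and 7170 CPM in polyA-enriched 1 and 2. The 6 glial genes summed to 4379 and 2349 CPM against 4069 and 2639 CPM. Both lists were present at high levels, as the label brain asks.

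The receptor genes were a small share of all RNA counted, and nearly all of them were detected. In each library 33 of the 34 had at least 10 counts, and the same 33 did so in all 4. The exception was PK1-R, a pyrokinin receptor. At least 100 counts in all 4 libraries were reached by 24 genes. Together the 34 genes took 0.114% and 0.14% of the counts in rRNA-depleted 1 and 2, against 0.109% and 0.131% in polyA-enriched 1 and 2.

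Mean levels over the 4 libraries ran from 0.52 to 127 CPM, a ratio of 244 between the highest and the lowest. Of the 34 genes, 11 averaged at least 50 CPM, 14 lay between 10 and 50 CPM and 9 were under 10 CPM. The median was 22.9 CPM, against 28.1 CPM for the 9737 genes tested, and 14 receptor genes lay above that second value. The 5 highest genes held 40.4% of the summed receptor CPM and the 10 highest held 65.4%.

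**Figure D1:**
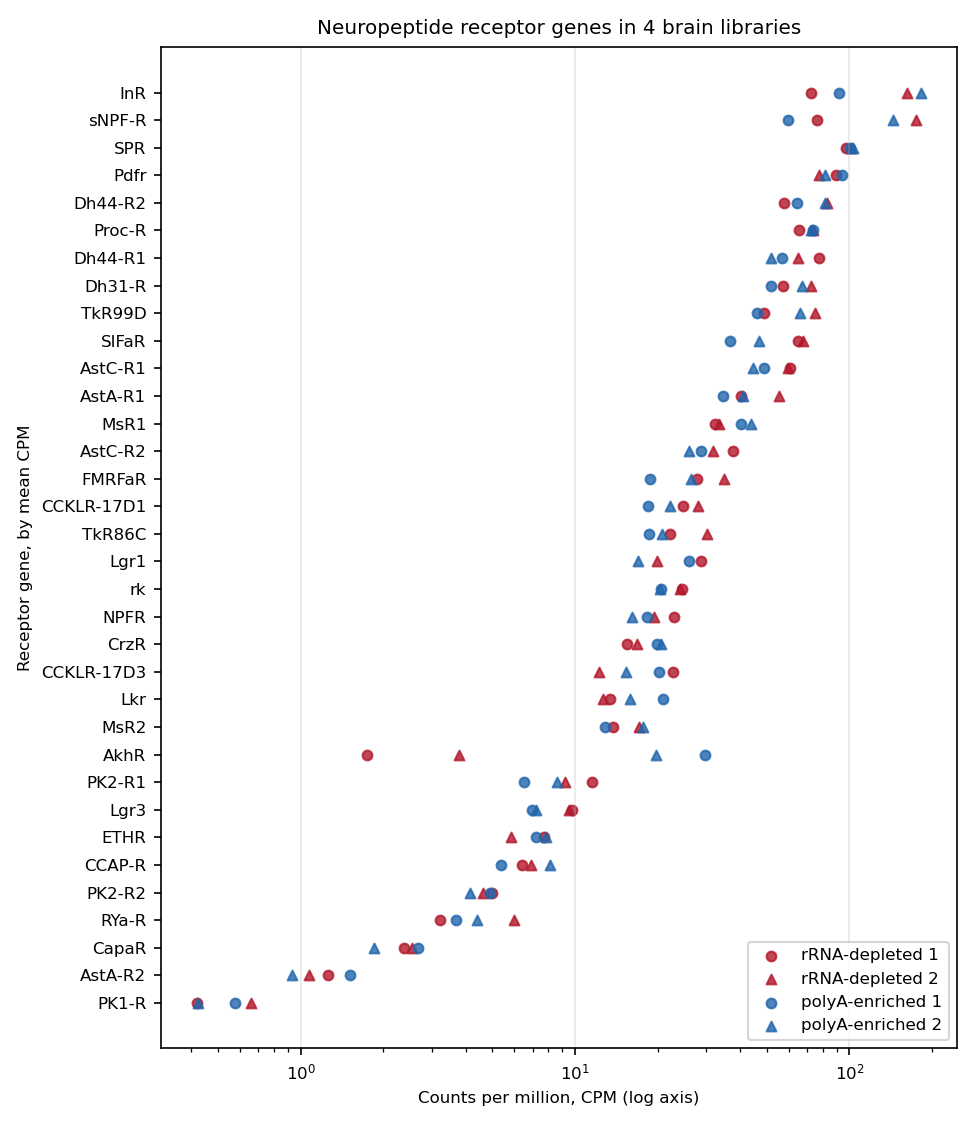
CPM of the 34 receptor genes on a log axis, from the highest mean at the top to the lowest at the bottom, with 1 symbol per library (red rRNA-depleted, blue polyA-enriched, circles numbered 1, triangles numbered 2). InR and sNPF-R lead with means of 127 and 114 CPM and split by library number, AkhR splits by library type, and PK1-R ends the order at 0.52 CPM.

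InR, the insulin receptor, had 1037 and 1971 counts in rRNA-depleted 1 and 2, against 1262 and 2154 counts in polyA-enriched 1 and 2. The gene sNPF-R, which encodes the receptor of short neuropeptide F, had 1090 and 2121 counts in rRNA-depleted 1 and 2, against 825 and 1709 counts in polyA-enriched 1 and 2. In both genes the libraries numbered 2 were high, and the library types overlapped. SPR, a receptor of sex peptide and of myoinhibitory peptides, had 97.5 and 101 CPM in rRNA-depleted 1 and 2, against 100.2 and 103 CPM in polyA-enriched 1 and 2. Its SD over the 4 libraries was 2.39 CPM on a mean of 101 CPM, and the library types overlapped.

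Pdfr, the receptor of pigment-dispersing factor, the peptide of the circadian clock neurons, had 89.7 and 77.2 CPM in rRNA-depleted 1 and 2, against 93.5 and 81.4 CPM in polyA-enriched 1 and 2. The proctolin receptor gene Proc-R had 65.4 and 73.7 CPM in rRNA-depleted libraries, against 73.7 and 72.4 CPM in polyA-enriched libraries. Neither gene separated the library types. TkR99D, a tachykinin receptor, had 48.8 and 74.9 CPM in rRNA-depleted libraries, against 46.2 and 66.0 CPM in polyA-enriched libraries. SIFaR, the receptor of SIFamide, a peptide of a few large neurons with wide projections, had 65.0 and 67.6 CPM in rRNA-depleted libraries, against 36.8 and 46.7 CPM in polyA-enriched libraries. SIFaR was high in both rRNA-depleted libraries and did not overlap between the types, whereas TkR99D was high in the libraries numbered 2.

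Among the receptors of the diuretic hormones, which act on fluid secretion outside the brain and on sleep and activity within it, Dh44-R2 had 57.7 and 82.8 CPM in rRNA-depleted 1 and 2, against 64.5 and 81.8 CPM in polyA-enriched 1 and 2. Dh44-R1 had 77.6 and 64.8 CPM in rRNA-depleted libraries, against 57.0 and 51.6 CPM in polyA-enriched libraries. Dh31-R had 57.4 and 72.2 CPM in rRNA-depleted libraries, against 51.9 and 67.2 CPM in polyA-enriched libraries. Only Dh44-R1 of the 3 kept the library types apart, and Dh44-R2 and Dh31-R were higher in both libraries numbered 2.

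At the low end PK1-R had 6 and 8 counts in rRNA-depleted 1 and 2, against 8 and 5 counts in polyA-enriched 1 and 2, all above 3 counts but too few to be tested. AstA-R2, a receptor of allatostatin A, had 18 and 13 counts in rRNA-depleted libraries, against 21 and 11 counts in polyA-enriched libraries. CapaR, the receptor of capa peptides, which is best known from the Malpighian tubules, had 34 and 31 counts in rRNA-depleted libraries, against 37 and 22 counts in polyA-enriched libraries. At this depth neither AstA-R2 nor CapaR passed a test between types or numbers, and PK1-R was not tested. AstA-R2 had 1.07 and 0.93 CPM in libraries numbered 2, against 1.26 and 1.52 CPM in libraries numbered 1. RYa-R, the RYamide receptor gene, had 46 and 73 counts in rRNA-depleted libraries, against 51 and 52 counts in polyA-enriched libraries. PK2-R2, a receptor of the hugin pyrokinin, had 71 and 56 counts in rRNA-depleted libraries, against 68 and 49 counts in polyA-enriched libraries. All 5 were detected in every library.

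The other 19 genes lay between these, with means between 6.70 CPM for CCAP-R and 53.4 CPM for AstC-R1. CCAP-R and ETHR, the receptors of crustacean cardioactive peptide and of ecdysis triggering hormone, which order the steps of moulting, averaged 6.70 and 7.16 CPM. NPFR, the neuropeptide F receptor gene known from feeding and reward, averaged 19.2 CPM. Of the leucine-rich repeat receptors, Lgr1 averaged 22.9, rk 22.4 and Lgr3 8.33 CPM. All 19 had at least 10 counts in every library.

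Longer transcripts collect more counts, so the genes were also ordered by CPM per kb of annotated exon. SPR led at 26.9 CPM per kb, followed by Dh44-R1 at 25.4, sNPF-R at 24.0, Dh44-R2 at 21.9 and TkR99D at 20.5 CPM per kb. InR, with 11367 exon bases the longest of the set, was 11th at 11.2 CPM per kb. Of the 33 pairs of neighbours in this order, 30 had overlapping ranges over the 4 libraries and cannot be ranked beyond their spread. The 3 clear steps were from Pdfr (18.3 CPM per kb) to AstA-R1 (11.5), from CapaR (1.30) to AstA-R2 (0.507) and from AstA-R2 to PK1-R (0.207). Genes further apart in the order were not compared in this way, and sNPF-R, with 12.6 to 36.8 CPM per kb over the libraries, overlapped InR, with 6.38 to 16.0.

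Several peptides have a pair of receptor genes, and within most pairs 1 gene was the more abundant per kb in every library. AstC-R1 and AstC-R2, receptors of allatostatin C that lie 57700 bp apart on 3L, had a ratio of 2.08 and 2.40 in rRNA-depleted 1 and 2, against 2.18 and 2.20 in polyA-enriched 1 and 2. TkR99D stood above TkR86C, a receptor of natalisin and tachykinin, by 2.46 to 3.57 times. The myosuppressin receptor gene MsR1 stood above MsR2 by 1.61 to 2.57 times. AstA-R1 stood above AstA-R2 by 14.4 to 32.9 times, and PK2-R1 above PK2-R2 by 1.41 to 2.48 times. The 2 drosulfakinin receptor genes did not keep an order, as the ratio of CCKLR-17D1 to CCKLR-17D3 was 0.763 and 1.59 in rRNA-depleted 1 and 2, against 0.641 and 1.01 in polyA-enriched 1 and 2. Dh44-R1 over Dh44-R2 was likewise between 0.836 and 1.78.

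The table's entry CG33696 had 76.5 and 53.0 CPM in rRNA-depleted 1 and 2, against 60.8 and 37.3 CPM in polyA-enriched 1 and 2. CG34411 had 24.0 and 19.4 CPM in rRNA-depleted libraries, against 15.1 and 15.6 CPM in polyA-enriched libraries. Under these older symbols both would rank among the detected receptors, CG33696 at a mean of 56.9 CPM and CG34411 at 18.5 CPM.

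In the annotation of dm6 coordinates, 14 of the 34 genes lie on 3R, 9 on 3L, 6 on X, 3 on 2R and 2 on 2L. They are long genes. The median span was 17128 bp against 2985 bp for the 9134 protein-coding genes tested, and the median exon length was 3218 bp against 2190 bp. Exons of 5 genes overlap exons of a gene on the other strand. The shares of exon bases were 34.5% in Lgr3, 33.2% in Dh44-R2, 26.8% in SPR, 9.78% in rk and 1.22% in RYa-R. Neither the strand setting of the counting nor its handling of reads over overlapping genes is given in the sources used here. Counts of these genes could thus hold reads of their partners or lack reads from the shared bases.

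The first comparison asked whether the way rRNA was avoided changed the level of receptor messages. The summed CPM of the 34 genes was 1145 and 1397 in rRNA-depleted 1 and 2, against 1091 and 1307 in polyA-enriched 1 and 2. The means were 1271 ± 179 CPM in rRNA-depleted libraries and 1199 ± 153 CPM in polyA-enriched libraries (SD, n = 2 each). The difference of 72.1 CPM was smaller than the spread within each type (exact two-sided permutation test, p = 0.67, where 2 against 2 libraries cannot go below 0.33). That spread holds the difference between the library numbers. Within the pairs of the same number, the rRNA-depleted library was higher by 53.9 CPM in pair 1 and by 90.2 CPM in pair 2 (paired exact test, p = 0.50, the smallest that 2 pairs allow).

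Gene by gene, edgeR's quasi-likelihood test called 0 of the 33 receptor genes tested, where 0% of all genes tested were called. A call needed an adjusted p under 0.05 together with a change of more than 1 on the log2 scale, up or down. At an unadjusted p under 0.05 there were 2 receptor genes, AkhR and SIFaR, and 1103 genes in all. The median log2 fold change of the 33 genes was 0.18 against 0.04 for all genes tested, and 24 of the 33 were above 0, against 55.2% of all genes. With the replicate number as a block, 0 receptor genes were called higher in rRNA-depleted libraries, where 0.349% of all genes tested were, and 1 was called lower, where 12.1% of all genes were. The gene called was AkhR.

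AkhR encodes the receptor of adipokinetic hormone, which mobilizes fat and sugar stores and is best known from the fat body. The gene covers 6711286 to 6716186 of 2L, on the minus strand, and has 3182 exon bases. AkhR had 25 and 46 counts in rRNA-depleted 1 and 2, against 412 and 233 counts in polyA-enriched 1 and 2. That is 1.75 and 3.79 CPM against 29.8 and 19.7 CPM, and both rRNA-depleted libraries were far below both polyA-enriched libraries. The log2 fold change was -3.09 (SE 0.54, adjusted p = 0.10 in edgeR's quasi-likelihood test). With the replicate block it was -3.12 (SE 0.24, adjusted p = 3.2e-18 in the same test), 8.72 times lower in rRNA-depleted libraries. Over 13 alternatives the log2 fold change stayed between -3.81 and -2.59, and the adjusted p ran between 1.2e-52 and 0.223. The call was therefore lost or gained with the setting, the direction was not.

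Genes of the fat body moved with AkhR. The 6 fat body genes of the marker list, Yp1, Yp2, Yp3, Lsp2, apolpp and Fbp1, summed to 1170 and 2356 CPM in rRNA-depleted 1 and 2, against 15076 and 13743 CPM in polyA-enriched 1 and 2. With the block 6 of the 6 were called lower, and Fbp1 was at 0 counts in rRNA-depleted 2. Of the muscle genes 5 of the 5 tested were called lower, with sums of 7.07 and 15.4 CPM against 187 and 183 CPM, and Act88F was at 0 counts in rRNA-depleted 1. Of the photoreceptor genes 5 of 6 were called lower, with sums of 745 and 1062 CPM against 2359 and 2212 CPM, and of the hemocyte genes 1 of 3, with sums of 445 and 459 CPM against 553 and 753 CPM. None of the 6 neuronal and none of the 6 glial genes was called in this fit. Of all genes tested 12.1% were called lower and 0.349% higher, so 0 of 6 is near these shares. Below the threshold on the log2 fold change, the glial genes wrapper and moody were at -0.84 and -0.45 and alrm at 0.56. The gene of the hormone itself, Akh, which is made in the corpora cardiaca, had 21 and 11 counts in rRNA-depleted libraries, against 1584 and 734 counts in polyA-enriched libraries. Its log2 fold change was -6.16 with the block (adjusted p = 1.6e-37 in edgeR's quasi-likelihood test). The part of these tissues in the AkhR result was not tested, and neither was that of the library method. By the study's methods the types were made from split total RNA, with different input amounts for each type.

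**Figure D2:**
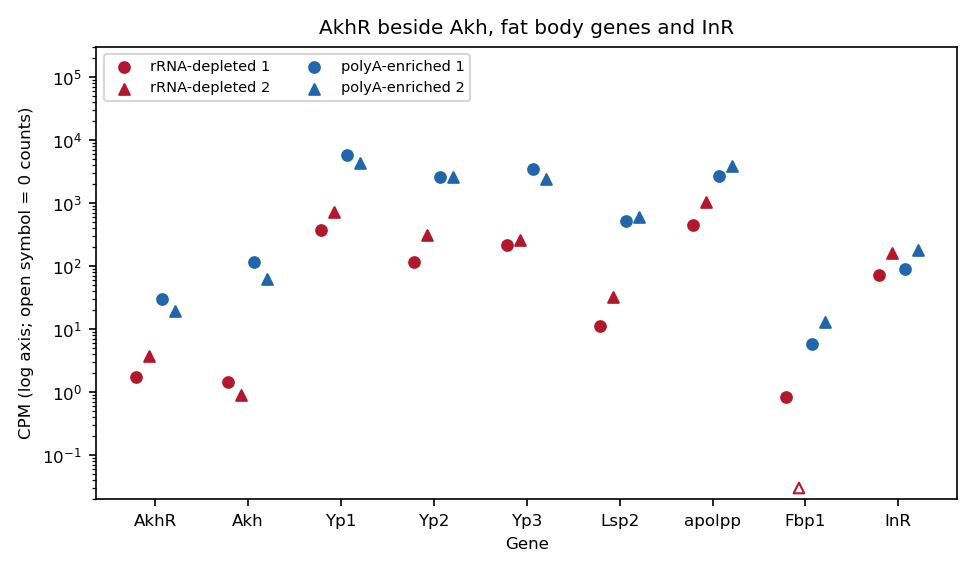
CPM on a log axis of AkhR, its ligand gene Akh, the 6 fat body genes and InR in the 4 libraries (red rRNA-depleted, blue polyA-enriched, circles numbered 1, triangles numbered 2, open symbol 0 counts). AkhR, at 1.75 and 3.79 CPM in rRNA-depleted libraries against 29.8 and 19.7 CPM in polyA-enriched libraries, splits in the direction of the fat body genes, while InR splits by number.

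The other 32 genes tested stayed within a log2 fold change of 1. At an adjusted p under 0.05 and any fold, the block fit had 9 receptor genes higher in rRNA-depleted libraries, where 11.1% of all genes tested were, and 2 lower, where 19.2% of all genes were. The 9 were SIFaR, FMRFaR, TkR86C, Dh44-R1, CCKLR-17D1, AstC-R1, AstC-R2, AstA-R1 and sNPF-R, and the 2 were AkhR and Lkr, the leucokinin receptor gene. DESeq2 with the same block kept 4 of the 9 (SIFaR, Dh44-R1, AstC-R1 and sNPF-R) and AkhR, while the other 5 had adjusted p between 0.057 and 0.171 and Lkr 0.518. SIFaR stood first, with 929 and 821 counts in rRNA-depleted 1 and 2, against 508 and 553 counts in polyA-enriched 1 and 2. Its log2 fold change was 0.73 with the block (SE 0.12, adjusted p = 1.2e-06 in edgeR's quasi-likelihood test). Without the block it was 0.72 (SE 0.24, adjusted p = 0.35), and over the alternatives the adjusted p ran between 4.4e-08 and 1.00. Lkr, whose ligand leucokinin acts on water balance and feeding, had 192 and 153 counts in rRNA-depleted libraries, against 288 and 188 counts in polyA-enriched libraries. Its log2 fold change with the block was -0.44 (SE 0.17, adjusted p = 0.045 in the edgeR test), and -0.44 (SE 0.25, adjusted p = 0.87) without it.

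FMRFaR, the FMRFamide receptor gene, had 398 and 424 counts in rRNA-depleted 1 and 2, against 260 and 312 counts in polyA-enriched 1 and 2, and the block fit gave 0.54 (SE 0.14) on the log2 scale. PK2-R1 had 165 and 112 counts in rRNA-depleted libraries, against 90 and 102 counts in polyA-enriched libraries, at 0.52 (SE 0.21). Lgr3, a relaxin-type receptor of insulin-like peptide 8, had 139 and 115 counts against 96 and 85 counts, at 0.50 (SE 0.21). Of the 3, FMRFaR passed an adjusted p of 0.05 with the block (0.0018 in the edgeR test) and PK2-R1 and Lgr3 did not (0.052 and 0.067). None of the 3 was called, since each was under a log2 fold change of 1.

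In CPM, both rRNA-depleted libraries lay above both polyA-enriched libraries in 11 of the 33 genes tested (33.3%), where 8.87% of all genes tested did. They lay below in 4 genes (12.1%), where 22.3% of all genes did, and these were AkhR, Lkr, CrzR, the corazonin receptor gene, and MsR1. Within the pairs of the same number, the ratio of rRNA-depleted to polyA-enriched was above 1 in both pairs for 17 genes (51.5%), below 1 in both for 7 (21.2%) and on opposite sides for 9 (27.3%). Over the 9530 genes tested that had counts in every library, these shares were 33.6%, 38.7% and 27.7%. These counts describe the 4 libraries only.

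**Figure D3:**
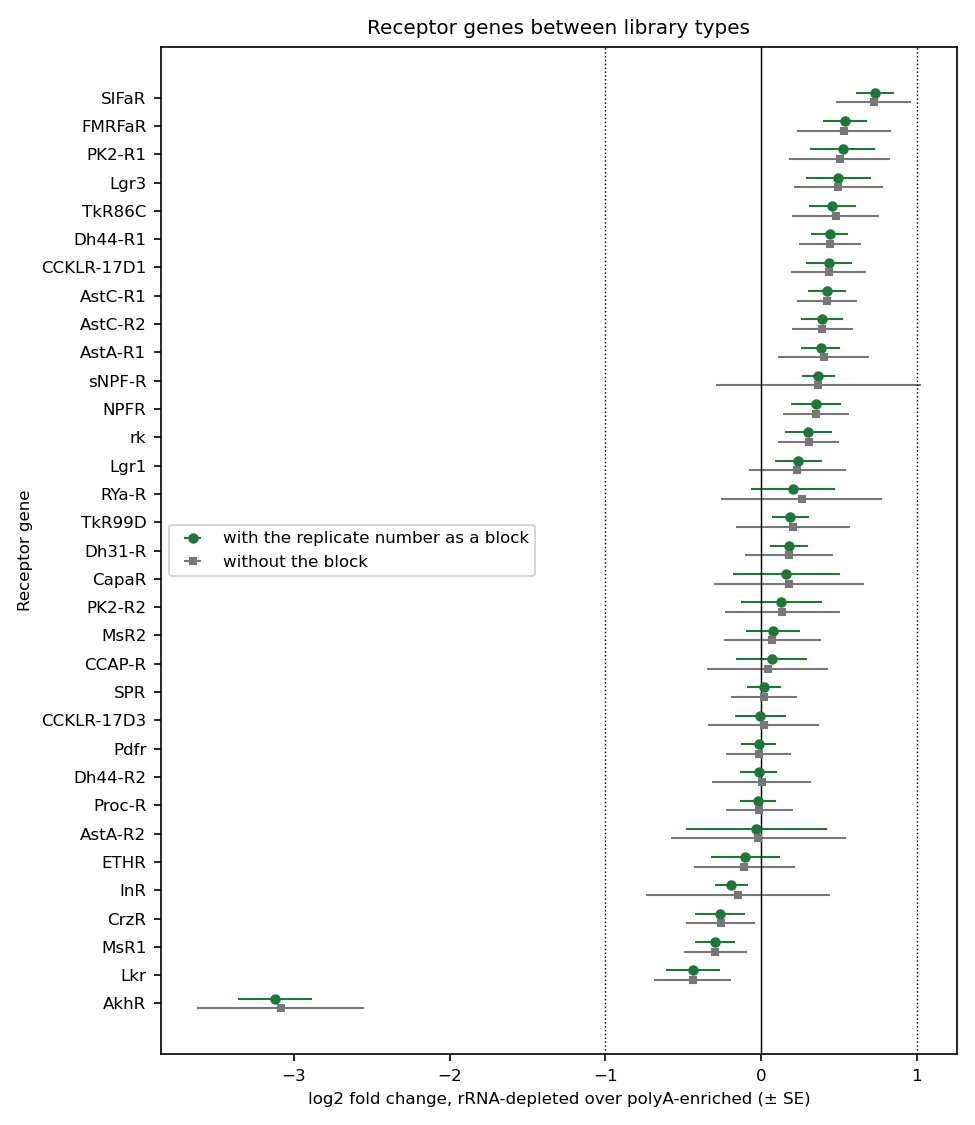
Log2 fold change of the 33 receptor genes tested, rRNA-depleted over polyA-enriched, with standard errors, with the replicate number as a block (green circles) and without it (grey squares). All genes but AkhR lie within the dotted lines at a log2 fold change of 1 in either direction, and the block narrows the error most for sNPF-R and InR.

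The second comparison set the libraries numbered 2 against the libraries numbered 1. If same-numbered libraries share a split RNA, on which the pairing rests, each number is 1 RNA sample made into 2 libraries. The SDs and p-values by number then cover the spread between preparations, not between biological samples. The summed CPM of the 34 genes was 1397 and 1307 in rRNA-depleted 2 and polyA-enriched 2, against 1145 and 1091 in rRNA-depleted 1 and polyA-enriched 1. The means were 1352 ± 63.8 CPM in libraries numbered 2 and 1118 ± 38.1 CPM in libraries numbered 1 (SD, n = 2 each), a difference of 234.5 CPM (exact two-sided permutation test, p = 0.33, the smallest that 2 against 2 allows). Most of it lay in 2 genes. Without sNPF-R and InR the sums were 1060 and 981 CPM in libraries numbered 2, against 996 and 940 CPM in libraries numbered 1, a difference of 52.7 CPM.

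In edgeR's quasi-likelihood test by number, 2 receptor genes were called higher in the libraries numbered 2, where 5.91% of all genes tested were, and 0 were called lower, where 2.42% of all genes were. The first gene was sNPF-R, which covers 20058511 to 20089007 of 3L on the minus strand. It had 175 and 144 CPM in rRNA-depleted 2 and polyA-enriched 2, against 76.3 and 59.7 CPM in rRNA-depleted 1 and polyA-enriched 1. Its log2 fold change was 1.31 (SE 0.21, adjusted p = 0.041), 2.48 times higher in libraries numbered 2. The second gene was InR, which covers 21570248 to 21619321 of 3R on the minus strand. Its level was 162 and 182 CPM in rRNA-depleted 2 and polyA-enriched 2, against 72.5 and 91.3 CPM in rRNA-depleted 1 and polyA-enriched 1. Its log2 fold change was 1.15 (SE 0.15, adjusted p = 0.034), 2.22 times higher in libraries numbered 2.

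In both genes the 2 libraries numbered 2 stood above the 2 numbered 1, whichever way the library had been made. With library type as a term, the adjusted p was 1.3e-16 for sNPF-R and 1.1e-14 for InR (edgeR's quasi-likelihood test), and over 13 alternatives it ran between 1.5e-30 and 0.19 for sNPF-R and between 1.3e-24 and 0.189 for InR. Leaving out any 1 library sets 1 library against 2, with the spread taken from the group of 2 alone. Neither gene was then called, with log2 fold changes between 1.04 and 1.51 for sNPF-R and between 1.00 and 1.22 for InR. The number is a label in the library names, and what else differed with it is not given in the labels. In bulk RNA, fewer cells of a type and less RNA per cell cannot be told apart between libraries of different number.

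The next 3 genes by size of the difference were RYa-R, TkR99D and CCKLR-17D3, and none was called. RYa-R had 6.01 and 4.39 CPM in rRNA-depleted 2 and polyA-enriched 2, against 3.22 and 3.69 CPM in rRNA-depleted 1 and polyA-enriched 1, a log2 fold change of 0.68 (SE 0.34). TkR99D was at 0.65 (SE 0.15) and CCKLR-17D3 at -0.56 (SE 0.18). CCKLR-17D3 had 12.3 and 15.4 CPM in libraries numbered 2, against 22.7 and 20.2 CPM in libraries numbered 1. It is the only one of the 5 that was lower in the libraries numbered 2.

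The median log2 fold change by number was 0.13 over the 33 genes and 0.05 over all genes tested. Both libraries numbered 2 lay above both numbered 1 in 10 of the 33 genes (30.3%), where 30.9% of all genes tested did, and below in 5 genes (15.2%), where 31.9% of all genes did. The share above was thus near that of all genes. Across the 33 genes, exon length and the log2 fold change by number had a Spearman correlation of 0.31, and across all genes tested 0.43, as a description of genes that share the same 4 libraries. For the blocked label fit these were -0.01 and 0.16. Neuronal genes summed to 8548 and 7170 CPM in libraries numbered 2, against 9114 and 7308 CPM in libraries numbered 1, and glial genes to 2349 and 2639 CPM against 4379 and 4069 CPM. Within both lists the genes differed in direction by number. The glial genes repo and moody were at 0.64 and 0.75, and Gs2, nrv2, alrm and wrapper at -0.90, -0.69, -0.68 and -0.16. The neuronal genes brp, elav and VAChT were at 0.99, 0.48 and 0.47, and nSyb, Gad1 and Syt1 at -0.70, -0.49 and -0.35. The part of these cell types in the difference by number was not tested.

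**Figure D4:**
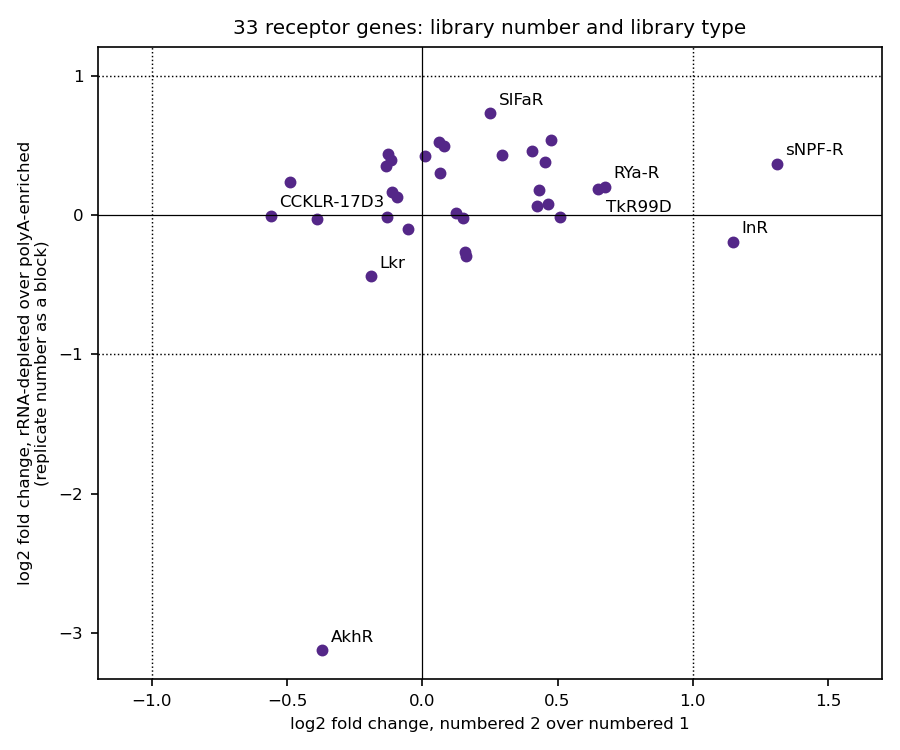
Each point is 1 of the 33 receptor genes tested, by its log2 fold change between library numbers (across) and between library types with the replicate number as a block (up). Dotted lines mark a log2 fold change of 1 in either direction. The genes that stand apart are AkhR at -3.12 between types and sNPF-R and InR at 1.31 and 1.15 between numbers, and no gene stands apart on both axes.

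Receptors were set beside the genes of their ligands in 42 pairs of ligand and receptor. The ligand was above its receptor in mean CPM per kb in 33 pairs and below it in 9. In every library it was above in 31 pairs and below in 9, and the order changed between libraries in 2, CCAP with CCAP-R and Ilp6 with InR. The size of the ratio moved with the number in some pairs. The ratio of sNPF to sNPF-R was 2.93 and 3.25 in rRNA-depleted 2 and polyA-enriched 2, against 16.2 and 15.2 in rRNA-depleted 1 and polyA-enriched 1. That of Ilp2 to InR was 20.4 and 18.8 in libraries numbered 2, against 68.8 and 53.9 in libraries numbered 1. The ratio of CCAP to CCAP-R was 0.911 and 0.598 in libraries numbered 2, against 2.00 and 1.55 in libraries numbered 1. Lk over Lkr went the other way, with 5.51 and 4.13 in libraries numbered 2, against 4.68 and 3.10 in libraries numbered 1. Akh over AkhR split by library type, with 4.99 and 1.42 in rRNA-depleted 1 and 2, against 22.8 and 18.7 in polyA-enriched 1 and 2. In the libraries used here the ligand genes Gpa2 and SP had 0 counts in all 4 libraries, which allows up to 0.21 to 0.253 CPM, while their receptors Lgr1 and SPR averaged 22.9 and 101 CPM. The other ligand genes listed for these receptors, Gpb5 for Lgr1 and Mip for SPR, averaged 26.6 and 96.1 CPM. Both were above the receptor per kb in every library. The bursicon gene Burs had 1 count in all and its receptor gene rk averaged 22.4 CPM. Ilp8 and RYa had at most 2 counts in any library, while their receptors were detected. As background, sex peptide is made in the male accessory gland and passes to the female at mating, and bursicon acts around moulting.

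By library number, most ligand genes had negative log2 fold changes while the receptor genes lay around 0, and the difference between the lists was not tested. Of the 28 ligand genes tested, 26 (92.9%) had a log2 fold change below 0, where 47.0% of all genes tested did, with a median of -0.84, and 6 were called lower in the libraries numbered 2 (Ms, SIFa, NPF, Crz, Dh31 and AstA), where 2.42% of all genes tested were called lower. With library type as a term 8 were called lower, in a fit that also called more of all genes tested than the fit without the term. The share of all genes called lower in that fit is not given here, so the 8 cannot be set against it. Between library types, with the block, 1 ligand gene was called lower (Akh, 3.57% of those tested), where 12.1% of all genes tested were. None was called higher, where 0.349% of all genes tested were. Thus sNPF-R, for example, was at 1.31 by number while its ligand gene sNPF was at -1.05, and InR was at 1.15 while Ilp2, Ilp3 and Ilp5, made by the insulin-producing neurons of the brain, were at -0.48, -0.86 and -1.40. Ilp6, the other InR ligand of the list, best known from the fat body and glia, was at 0.02. The ligand genes are shorter than the receptor genes, with a median exon length of 1176 against 3218 bp.

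**Figure D5:**
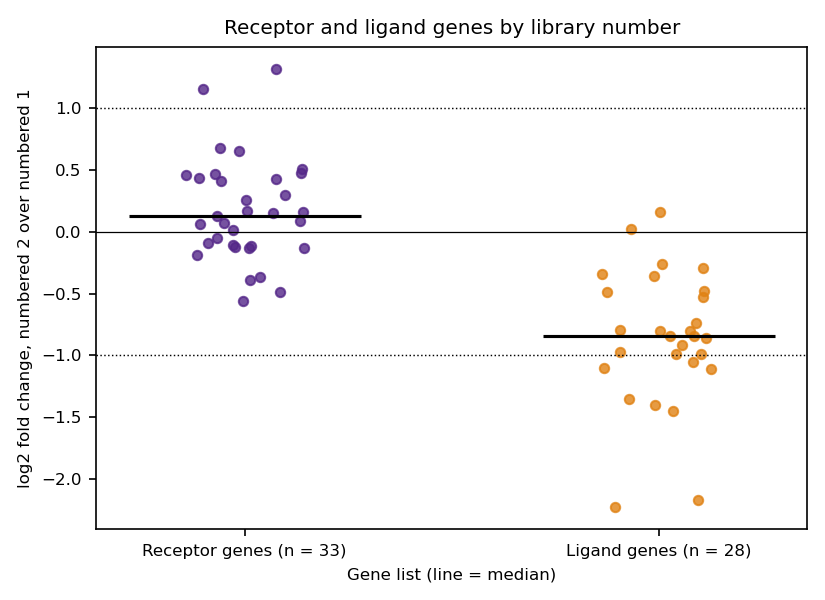
Log2 fold change between library numbers of the 33 receptor genes and the 28 ligand genes tested, each point a gene and each line a median (0.13 and -0.84), with dotted lines at a log2 fold change of 1 in either direction. Receptor genes lie around 0, with sNPF-R and InR above 1, and 26 of the 28 ligand genes lie below 0.

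Further lists give the context of the receptor genes, with counts from the same fits. Of 6 genes listed as other peptide receptors and tested, 0 were called with the block or by number. Among them are Alk, TrissinR and moody, which also stands in the glial list. Of all genes tested, 0.349% were called higher and 12.1% lower with the block. By number 5.91% were called higher and 2.42% lower. Of 35 genes of G protein signalling tested, 0 were called higher and 2 lower (5.71%) with the block in rRNA-depleted libraries, where 12.1% of all genes tested were called lower. The 2 were Gbeta76C and inaC, with log2 fold changes of -3.61 and -2.04. By number 1 of the 35 genes was called higher (2.86%), where 5.91% of all genes tested were, and 0 were called lower, where 2.42% were. Of 19 genes of insulin signalling tested, 0 were called higher and 3 lower (15.8%) with the block, a share near the 12.1% of all genes. The 3 were Thor, ImpL2 and Sdr, with log2 fold changes of -4.05, -1.95 and -1.14. By number 1 was called lower (5.26%), Rheb, at -1.10, where 2.42% of all genes tested were called lower. The list had 0 called higher, where 5.91% of all genes tested were, while InR was at 1.15. The median of the 19 genes by number was 0.53 on the log2 scale, against 0.05 for all genes tested. Thor encodes a repressor of translation, and ImpL2 and Sdr encode secreted proteins that bind insulin-like peptides.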

How the data were processed

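Brain RNA was sequenced in reads of 100 bp. The submitters' processing notes name FastQC, Trimmomatic, STAR, featureCounts and dm6; versions, annotation, strand setting and how multi-mapping reads were handled are not given in the sources used here. The authors deposited raw counts per gene, without normalization or pooling. Of 16729 rows, 4 were left out (Dscam1 and para without counts, each followed by a row of exon coordinates), and every column was assigned (0 unassigned). Libraries of S2 cells were not analysed here.

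Genes reaching 10 counts in 2 or more libraries were tested with edgeR 4.0.16 in R 4.3.3 (quasi-likelihood test, TMM normalization, Benjamini-Hochberg adjustment over all genes tested) and called at an adjusted p under 0.05 and a log2 fold change beyond 1. Standard errors were derived from F, as the absolute change over its square root. CPM uses library totals. These fits were first tested on simulated data. DESeq2 1.42.0 was the alternative tool, and other steps used Python 3.11.15. Positions and exon lengths are from Ensembl release 115, whose BDGP6 assembly has the coordinates of dm6, and older symbols from RefSeq. Pairing by number rests on the methods' statement that total RNA was split and on the numbers in the library names; same-numbered libraries' deviations had r = 0.902.

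The members and the lists (markers, ligands, other peptide receptors, G protein and insulin signalling) were chosen with earlier results of these data known. Values per library were given for the 10 highest and 5 lowest members by mean CPM, every called member, and the 5 with the largest change in the blocked label fit and in the fit by number; other members and ligands named were chosen after their values were seen. Alternatives were the replicate block, library totals, DESeq2 size factors, no filter, a filter in all 4 libraries, DESeq2, another threshold and each library left out. Combining the block with DESeq2, its size factors or library totals was chosen after seeing the data. Intervals on shares are not given, and the floor of 3 counts covers counting error only. Nothing beyond the study's word on replicates says that libraries came from separate animals, so p-values measure the spread between these libraries.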

Additional observations from a re-analysis of the deposited data

How the results depend on the processing

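With 2 libraries per type, calls depended on how the spread was estimated. Between library types 0 receptor genes were called, and 1 (AkhR) was called with the replicate block, with no filter, with DESeq2, and with the block combined with DESeq2, DESeq2 size factors or library totals; with each library left out it was 0 to 1, and 1 only without polyA-enriched 2. The pairing moved no other receptor gene past the threshold, and the summed CPM difference of 72.1 kept its value as a mean of paired differences (exact p = 0.50, the smallest that 2 pairs allow). Over all genes 0 were called without the block, 1214 with it, 548 with DESeq2 (852 with the block), 255 with no filter and 153 with the filter in all 4 libraries. The median of the 33 genes between types was 0.039 to 0.402 with each library left out, and the summed CPM difference was -54.3 to 198, reversed at -54.3 without rRNA-depleted 2 and at -36.1 without polyA-enriched 1. With each library left out the change between types was -0.92 to 0.50 for InR and -0.43 to 1.21 for sNPF-R. InR reversed to 0.35 without rRNA-depleted 1 and 0.50 without polyA-enriched 2, and sNPF-R to -0.43 without rRNA-depleted 2 and -0.18 without polyA-enriched 1. With 1 library left out, type and number are no longer balanced, and within the pairs InR was at -0.33 and -0.16 and sNPF-R at 0.35 and 0.27. By number 2 receptor genes were called, 1 (InR) with DESeq2 size factors, 0 with no filter and 0 at an adjusted p under 0.01. That last threshold could be passed by no gene, as the smallest adjusted p of all genes tested was 0.012 (edgeR's quasi-likelihood test). Over all genes 811 were called, 1554 with library type as a term, 576 with DESeq2 size factors and 149 with no filter. The causes were not tested. A further 50 values for the whole list and 225 for single genes kept their direction and side of the threshold. Levels under 10 counts, as for PK1-R, limit any statement on change.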
